A study of Mus musculus with 15 samples.

Results

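Ccl24, Ccl8 and Ccl11 are 3 CC chemokines, secreted proteins that attract leukocytes, and they were 3 of the 754 genes counted in mouse bone marrow-derived macrophages (BMDMs). They were taken by name as chemokines tied to type 2 immunity and selected on their counts across the 4 groups of these samples, where their high counts in the IL4 group were already known. Their levels and group differences are therefore given as descriptions, without a test. Mature CCL24 (eotaxin-2) and CCL11 (eotaxin) bind the receptor CCR3 and attract eosinophils, while mouse CCL8 is a ligand of CCR8. IL-4 acts through the IL-4 receptor and the transcription factor STAT6, and macrophages that respond to it switch on a set of genes that includes chemokines of this kind. Monophosphoryl lipid A (MPLA), by contrast, stimulates Toll-like receptor 4 and drives an inflammatory program.

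The 15 samples were BMDMs grown from mouse bone marrow, and the labels give no strain, genotype or age for the mice. In the MPLA group (n = 4) the cells were exposed to 20 ng/mL MPLA for 4 days as M1 standards, and in the IL4 group (n = 4) to 20 ng/mL IL-4 for 4 days as M2 standards. The IRF5-NP group (n = 3, numbered 1, 2 and 4) consisted of IL-4-exposed cells that were also incubated with 1 µg of nanoparticles carrying IRF5 mRNA for 1 h, and the eGFP-NP group (n = 4) of IL-4-exposed cells given nanoparticles carrying the reporter eGFP mRNA at the same labelled amount and time. By the methods, the IRF5 particles held IKKβ kinase mRNA and some eGFP mRNA as well, and the strongly eGFP-positive cells were sorted and cultured again in a lower dose of IL-4 before RNA was isolated. The IL4 standards were not described as sorted, so particle exposure, sorting and the lower IL-4 dose cannot be told apart in the comparisons of nanoparticle groups with IL4. The methods state another nanoparticle amount than the labels, given as mRNA. Nothing in the labels says that replicates came from separate cultures or animals, so SDs and p-values measure only the spread between these samples.

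RNA was counted on the NanoString nCounter, in which a color-coded probe binds each target RNA and bound probes are counted one by one without amplification. A gene was called above background where its count exceeded the mean plus 2 SD of the 8 negative-control probes of that sample, a limit of 19.7 to 34.9 counts. Gene counts summed to between 738305 and 1784833 per sample, except for IRF5-NP 4 at 266169. eGFP-NP 1 and 2 did not differ beyond sampling noise and were summed as 1 library, which left 3 eGFP-NP libraries. MPLA 1 and 4, MPLA 2 and 3, IRF5-NP 1 and 2, and eGFP-NP 3 and 4 were also nearly identical and were kept apart. Of 13 macrophage markers measured, 11 or 12 were above background in every library. Probes differ in efficiency, so levels are compared between samples and never between genes.

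Of the 3 genes, a promoter sequence was at hand for Ccl8, and it is shown with that of Ccl12, the adjacent gene, because the pair differed in sign between MPLA and IL4. Both are the 250 bases before the annotated start in RefSeq (GRCm38.p6, plus strand), chr11:82114935-82115184 for Ccl8 and chr11:82101595-82101844 for Ccl12, with the TATAAA motif in capitals.
Ccl8: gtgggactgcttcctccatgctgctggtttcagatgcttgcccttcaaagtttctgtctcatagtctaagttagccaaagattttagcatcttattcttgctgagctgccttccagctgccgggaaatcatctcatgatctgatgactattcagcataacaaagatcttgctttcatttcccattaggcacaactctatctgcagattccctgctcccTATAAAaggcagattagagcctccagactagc
Ccl12: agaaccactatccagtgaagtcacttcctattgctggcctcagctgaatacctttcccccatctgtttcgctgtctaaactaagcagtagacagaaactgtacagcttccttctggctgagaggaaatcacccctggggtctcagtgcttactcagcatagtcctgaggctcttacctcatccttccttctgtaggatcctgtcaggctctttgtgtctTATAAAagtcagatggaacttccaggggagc
The TATAAA motif began 32 bases before the start of Ccl8 and 31 bases before that of Ccl12, and 12.4% of 32851 promoter windows of this length held it on either strand. The letters TTC and GAA separated by any 4 bases, a spacing that STAT6 is known to bind, were in neither window on either strand, which says only that these letters are not there. They were present in 5.85% of all windows. In RefSeq order, Ccl2, Ccl7, Ccl11, Ccl12, Ccl8 and Ccl1 follow one another on chromosome 11, while Ccl24 lies next to Ccl26 on chromosome 5.

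Ccl24 was detected in the IL4 group alone. The 4 IL4 samples held 312, 132, 270 and 167 counts. The MPLA samples held 18, 10, 10 and 15 counts, the IRF5-NP samples 16, 28 and 9, and the eGFP-NP samples 19, 13, 7 and 11. Every IL4 sample was above its background limit and none of the other 11 samples was, although IRF5-NP 2 missed its limit of 28.4 counts by less than 1 count. Scaled to library size with TMM factors (CPM), Ccl24 ranged from 95.0 to 275 CPM in IL4, and the mean was 7.35 ± 0.82 (SD, n = 4) in log2 CPM. Means below background were 4.37 ± 0.40 (n = 3) in IRF5-NP, 3.61 ± 0.49 (n = 3) in eGFP-NP and 3.07 ± 0.32 (n = 4) in MPLA, and levels below background have no order.

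Ccl8 was counted in most samples and stood apart from the other groups in IL4. The IL4 samples held 466, 1843, 1821 and 1780 counts. The MPLA samples held 288, 117, 143 and 293 counts, which fell into the same nearly identical pairs as the rest of their genes. The IRF5-NP samples held 162, 164 and 152 counts, and the eGFP-NP samples 30, 26, 157 and 133. IL4 1 was the low sample of its group, and eGFP-NP 1 and 2 were the lowest of all, with 1 just above its limit of 29.4 counts and 2 below its limit of 30.5. Summed as 1 library, they were not above background. After scaling, the IL4 samples lay at 411 to 1734 CPM and the next sample, IRF5-NP 4, at 330 CPM. That sample had about as many Ccl8 counts as the other IRF5-NP samples but the lowest total. In log2 CPM the order was IL4 at 9.98 ± 0.90, IRF5-NP at 7.60 ± 0.67, MPLA at 6.73 ± 0.63 and eGFP-NP at 6.42 ± 1.48 (SD). The ranges of IRF5-NP, MPLA and eGFP-NP overlapped one another, so these neighbors did not differ beyond their spread, and IL4 did not overlap any of them on this scale. Scaled by housekeeping genes instead, IL4 1 (565 scaled counts) and IRF5-NP 4 (556) nearly touched.

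Ccl11 split the samples within groups. The IL4 samples held 103, 37, 9 and 104 counts, and IL4 3 was the one below background. The eGFP-NP samples held 7, 5, 70 and 71 counts, with 3 and 4 above background and 1 and 2 below. The MPLA samples held 15, 14, 12 and 14 counts and the IRF5-NP samples 10, 7 and 16, none above background. In log2 CPM the means were 5.17 ± 1.43 in IL4, 5.09 ± 2.02 in eGFP-NP, 3.84 ± 1.18 in IRF5-NP and 3.14 ± 0.14 in MPLA (SD). IL4 and eGFP-NP, the first neighbors in this order, overlapped fully within their spread. Depth limited the reading of IRF5-NP 4, where the background limit equalled 70.5 CPM, above the 68.4 CPM at which eGFP-NP 3 had Ccl11 and below the 82.1 CPM of eGFP-NP 4. That limit also exceeded Ccl11 in IL4 2 (26.6 CPM) and IL4 4 (63.6 CPM).

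**Figure D1:**
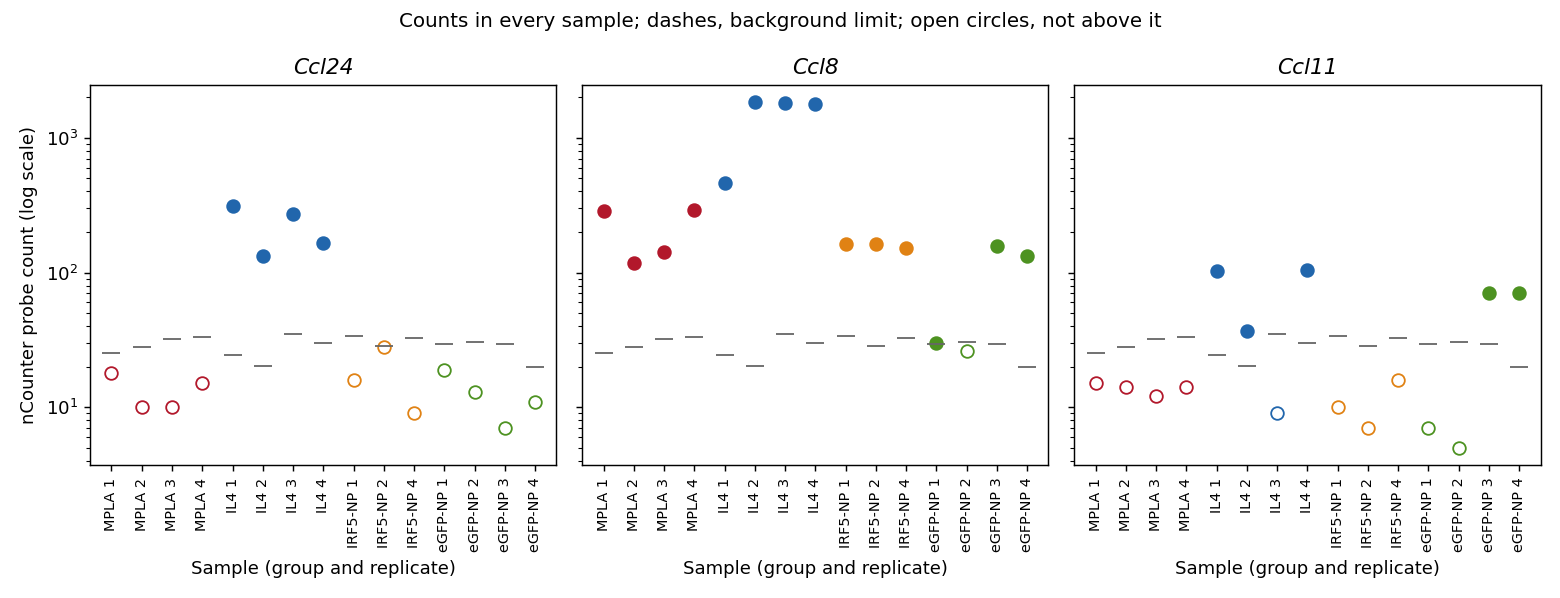
Probe counts of Ccl24, Ccl8 and Ccl11 (log axis) in each of the 15 samples, colored by group, with each sample's background limit as a dash and samples not above it as open circles. Ccl24 was above background in the 4 IL4 samples alone, Ccl8 reached 466 to 1843 counts in IL4, and Ccl11 was above background in 3 IL4 and 2 eGFP-NP samples.

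The comparison of MPLA with IL4 contrasts the M1 and M2 standards. All 3 chemokines were lower in MPLA without overlap between the groups on the CPM scale, as were 15.1% of the 754 genes, while 22.1% were higher. Because that contrast was among the values that chose the genes, nothing is read from the count. Ccl24 was lower in MPLA by 4.64 ± 0.48 on the log2 scale (SE of the edgeR fit), and as no MPLA sample was above background this is given as at least 10.2-fold. The bound is the mean level in IL4 over the mean background limit or level, whichever was higher, of the dim samples. Ccl8, above background in all 8 samples, was 9.94-fold lower in MPLA (log2 difference -3.31 ± 0.50). Ccl11 had a fitted difference of -2.67 ± 0.66 in MPLA. No bound is given for it, as no MPLA sample was above background and the IL4 mean includes IL4 3, also below background. For Ccl11 the lack of overlap rested on IL4 3, at 8.57 CPM beside 8.12 CPM in MPLA 2, both below background, and its unscaled count of 9 was below all 4 MPLA counts.

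The nanoparticle groups were compared with IL4 to see what particle-treated, IL-4-exposed cells kept of the IL4 levels. Ccl24 and Ccl8 were lower without overlap in both nanoparticle groups, and Ccl11 overlapped in both. Of all genes, 4.38% were lower without overlap in IRF5-NP and 6.9% in eGFP-NP, while 4.38% and 5.04% were higher, and again the genes were chosen with these values known. Ccl24 was at least 4.25-fold lower in IRF5-NP (log2 difference -3.29 ± 0.59) and at least 6.26-fold lower in eGFP-NP (-4.12 ± 0.63). Taken singly, the nearly identical IRF5-NP 1 and 2 gave bounds of 5.41-fold and 6.19-fold, and the shallow IRF5-NP 4 only 2.30-fold. Ccl8 was 5.85-fold lower in IRF5-NP (-2.55 ± 0.63). In eGFP-NP its log2 difference was -3.50 ± 0.81 over all 3 libraries and -2.89 without the summed eGFP-NP 1 and 2, which was not above background. The other libraries, eGFP-NP 3 and 4, lay 6.56-fold and 6.55-fold below the mean of IL4. The low level of both genes was therefore found with either cargo, IRF5 or eGFP. Both comparisons share the 4 IL4 samples. Ccl11 differed by a fitted -1.69 ± 0.95 in IRF5-NP and by -0.03 ± 1.00 in eGFP-NP, each with an overlap that ran from IL4 3 at the bottom of its group. No IRF5-NP sample had Ccl11 above background, so -1.69 is not a measured size, and no fold bound could be given. In eGFP-NP the sign of the Ccl11 difference changed with the scaling, from -0.03 to 0.16 with DESeq2 size factors.

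**Figure D2:**
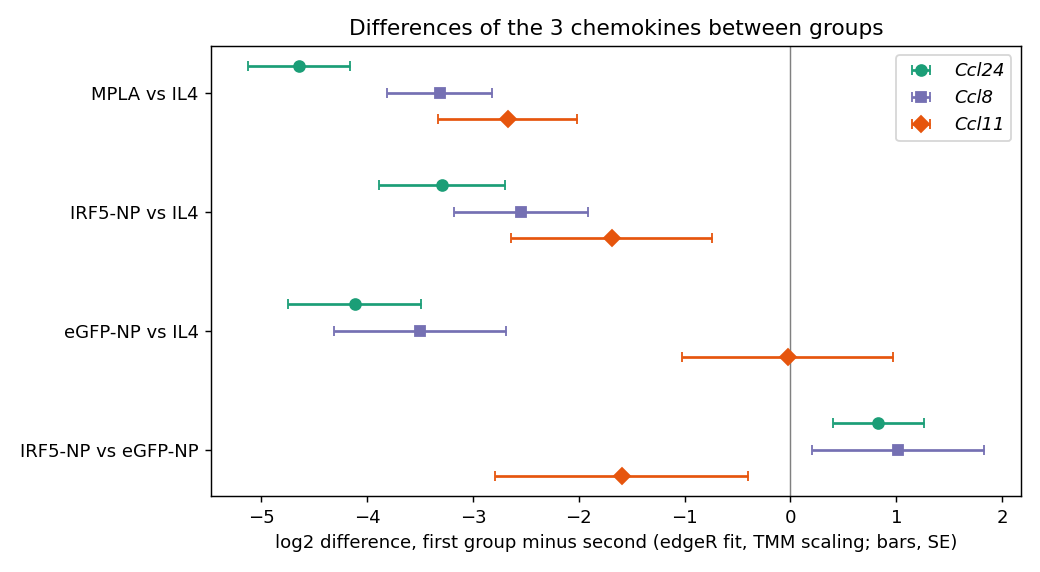
Log2 differences (points) with their SE (bars) of the 3 chemokines in each comparison, first group minus second, from the edgeR fit with TMM scaling. Ccl24 and Ccl8 lie at -2.55 or below against IL4 in all 3 comparisons, while Ccl11 runs from -2.67 in MPLA to -0.03 in eGFP-NP.

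The 2 nanoparticle cargoes were compared with each other at the same labelled exposure. None of the 3 chemokines separated the cargoes, beside 7.96% of all genes that were higher and 6.76% that were lower without overlap in IRF5-NP. Ccl8 differed by 1.01 ± 0.81 on the log2 scale, Ccl24 by 0.83 ± 0.43 with both groups below background, and Ccl11 by a fitted -1.59 ± 1.20 with no IRF5-NP sample above background. Samples of the same number deviated together in these groups, so same-numbered pairs are also given. They are not shown to be true pairs, since eGFP-NP 3, nearly identical to eGFP-NP 4, could stand in its place. Ccl8 was higher in IRF5-NP in 3 of 3 same-numbered pairs. The levels were 7.15 against 4.81 log2 CPM in number 1, 7.23 against 4.57 in number 2 and 8.35 against 7.25 in number 4. As eGFP-NP 2 was below its background limit and eGFP-NP 1 just above, the size of the gap in number 2 is not measured and that in number 1 is uncertain. A fit that added the replicate number as a block put Ccl8 at 1.96 in place of 1.01. Numbers 1 and 2 are nearly identical in each group, so the 3 pairs hold fewer than 3 independent ones. Without IRF5-NP 4 the unblocked difference was 0.37, and without the summed eGFP-NP 1 and 2 it was 0.53. The pairs of Ccl24 differed by -0.25, 1.09 and 0.57, all below background. Those of Ccl11 differed by 0.40, 0.44 and -1.20, with eGFP-NP 4 the only one of the 6 samples above background.

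**Figure D3:**
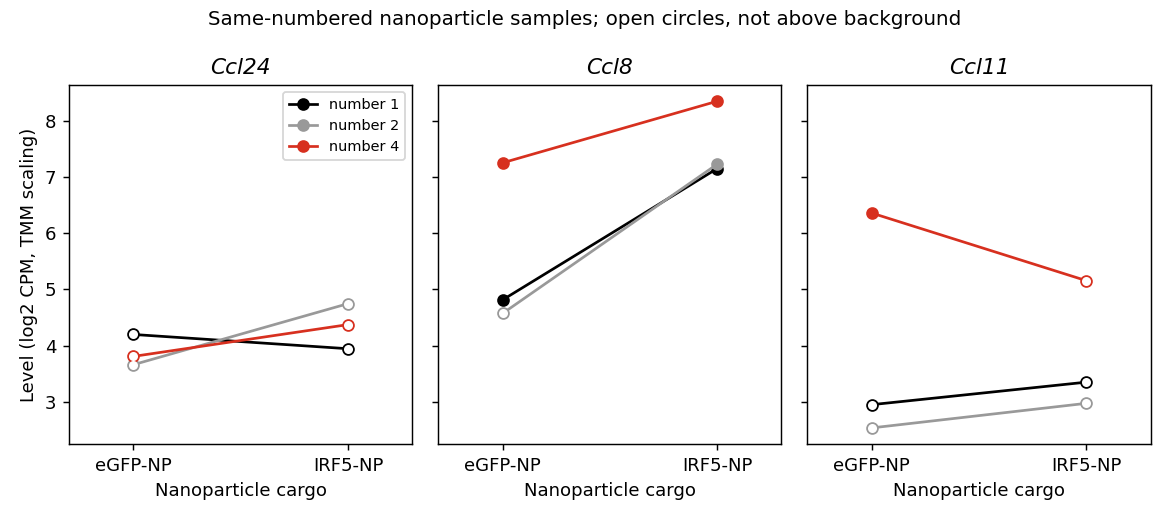
Levels (log2 CPM, TMM scaling) of the 3 chemokines in nanoparticle samples of the same number, joined by lines, with samples not above background as open circles. The Ccl8 lines rise from eGFP-NP to IRF5-NP by 2.34, 2.66 and 1.10 for numbers 1, 2 and 4, and the Ccl24 and Ccl11 lines do not share a direction.

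Markers of another cell type moved between samples and are set beside each chemokine. The 6 measured fibroblast markers, among them the collagen genes Col1a2 and Col3a1, were all above background in the 4 MPLA samples and in 6 of the 11 IL-4-exposed samples, with mean levels of 9.82 to 11.5 log2 CPM in those 6. In the other 5 (IL4 3, IRF5-NP 1 and 2, and eGFP-NP 1 and 2), at most 1 marker was above background and the mean was 3.85 to 4.16. Ccl11 was above background in 5 of the 6 IL-4-exposed samples with these markers and in 0 of the 5 without them. The exception was IRF5-NP 4, the shallowest sample. All 4 MPLA samples had the markers, at 12.2 to 12.4 log2 CPM, and no Ccl11 above background. Ccl24 and Ccl8 did not follow them in IL4, since IL4 3, with 0 of 6 markers above background, held 270 counts of Ccl24 and 1821 of Ccl8. In eGFP-NP, Ccl8 was at 157 and 133 counts in the samples with the markers and at 30 and 26 in those without. In IRF5-NP it was at 152 counts (330 CPM) in the sample with them and at 162 and 164 (143 and 151 CPM) in those without. The mean of 13 macrophage markers also moved with Ccl11. It was 9.48 and 9.40 log2 CPM in eGFP-NP 3 and 4, 10.0, 10.8 and 10.1 in IL4 1, 2 and 4, and between 10.8 (IRF5-NP 1) and 10.95 (IL4 3) in the IL-4-exposed libraries with few fibroblast markers. IRF5-NP 4 lay at 9.50 and MPLA at 10.3 to 10.4. Over the 14 libraries, which share 4 groups, Pearson's r of Ccl11 was -0.75 with the macrophage mean and 0.37 with the fibroblast mean (Spearman's rho -0.0066). For Ccl24 the same r values were 0.23 and -0.28 (rho with the fibroblast mean -0.64, with Ccl24 below background in 10 of the 14 libraries), and for Ccl8 0.044 and 0.017 (rho -0.13). The part of fibroblast or macrophage RNA in the levels of Ccl11 and Ccl8 was not tested, and in bulk RNA fewer cells of a type and less RNA per cell cannot be told apart.

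**Figure D4:**
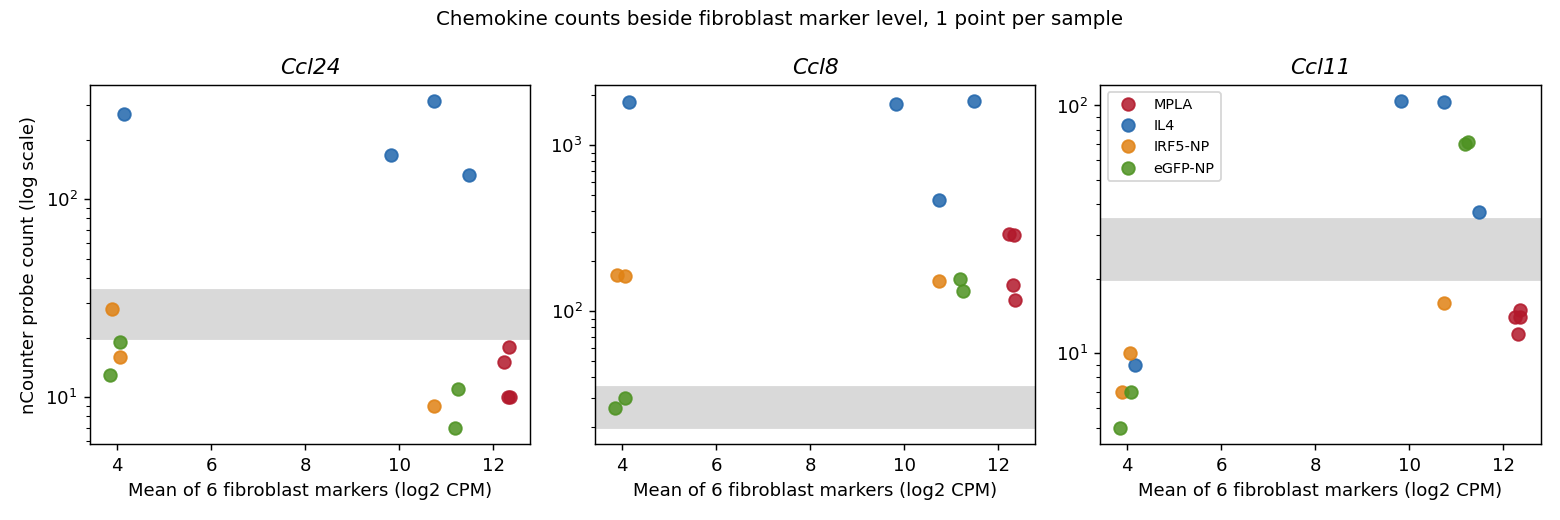
Probe counts of each chemokine (log axis) against the mean level of 6 fibroblast markers (log2 CPM), 1 point per sample colored by group, with the range of background limits shaded in gray. All 5 samples with Ccl11 above the shaded range lie at marker levels of 9.82 to 11.5, while Ccl24 and Ccl8 are high in IL4 at both ends of the axis.

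Markers of further cell types are set beside the chemokines in the same way. Of 10 measured eosinophil genes, Siglecf was above background in 14 samples, at up to 386 counts, and Ccr3 in 7, while the granule protein genes Epx and Prg2 were not above background in any sample. The mean of 3 endothelial markers lay between 3.00 and 3.27 log2 CPM in MPLA, between 5.14 and 5.77 in IL4, and in the nanoparticle groups at 5.09 to 5.45 (IRF5-NP) and 4.47 to 5.37 (eGFP-NP). It was carried by Flt1, a VEGF receptor gene, with 244 to 770 counts in IL4 and 4 to 16 in MPLA, whereas Cdh5 and Tek were each above background in 1 IL4 sample and in no other. The mean of 8 neutrophil markers was higher in MPLA, at 4.89 to 5.08 beside 3.80 to 4.53 in IL4, and it was at 4.38 to 4.85 (IRF5-NP) and 4.25 to 4.79 (eGFP-NP) with nanoparticles. Camp and S100a8 held 328 to 863 and 293 to 644 counts in MPLA and at most 28 and 33 in IL4, and Mmp8 held 347 to 427 in MPLA and 6 to 442 in IL4. The other 5, Ly6g, Elane, Cxcr2, Mpo and S100a9, had lower means in MPLA than in IL4, but each was above background in no MPLA sample and in at most 1 IL4 sample. The mean of 6 mast cell markers lay between 3.16 and 3.57 in MPLA, between 2.91 and 4.17 in IL4, and at 4.33 to 4.58 (IRF5-NP) and 3.33 to 4.23 (eGFP-NP) with nanoparticles. These are mostly levels below background, with 0 to 2 of the 6 markers above it per library and Kit, Cpa3, Fcer1a and Cma1 in no sample, and MPLA lay within the range of IL4. The part of these cell types in the levels of the 3 chemokines was not tested.

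Across the 14 libraries, the 3 chemokines were unequally alike. Pearson's r of log2 CPM was 0.80 between Ccl24 and Ccl8, 0.42 between Ccl8 and Ccl11 and 0.36 between Ccl24 and Ccl11. Among 590 genes above background in at least 4 libraries, those most like Ccl24 were Retnla (r = 0.94), which encodes the secreted M2 marker RELMα, and the ribonuclease genes Ear3 (0.88) and Rnase2a (0.82). Ear3 was above background in the 4 IL4 libraries and in no other, as Ccl24 was, so its r was largely set by that filter and by levels below background. The r of Retnla and Rnase2a was also largely set beforehand, as Ccl24 was selected as high in IL4 and was below background in the other 10 libraries. By the same measure Ccl8 was most like Ccl24, though both were selected as high in IL4 and Ccl24 was below background in the other 10 libraries, so that r was largely set beforehand. Next for Ccl8 were the complement gene C1qb (0.79) and the cytokine signaling suppressor Socs2 (0.77). Ccl11 was most like Edn1 (0.83), the gene of the vasoconstrictor endothelin-1, Emp1 (0.82) and the metalloprotease gene Adamts14 (0.78). The points share 4 groups and several nearly identical libraries, and rank correlation named partly different genes, with Retnla first for Ccl24 but Sema6d for Ccl8 and Furin for Ccl11.

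Receptors of the chemokines were measured in the same samples. Ccr3, the receptor of CCL24 and CCL11, lay near background, at 12 to 57 counts in IL4 with 2 of 4 samples above it and at 17 to 21 in MPLA with none. Its difference in MPLA against IL4 was -1.20 ± 0.53 (edgeR, Benjamini-Hochberg adjusted p = 0.13), and it was called by DESeq2 (adjusted p = 0.0479) and by edgeR without IL4 4 (adjusted p = 0.0363). Ccr8, the receptor of CCL8, was above background in 1 of 15 samples. Its fitted difference of -1.10 ± 0.36 (edgeR adjusted p = 0.0546), called in 3 of 17 alternatives (DESeq2, without IL4 1 and without IL4 4), therefore rests mostly on values below background. Of 6 measured receptor genes, 3 were lower and 1 higher in MPLA by the same test, beside 14.2% and 12.2% of all genes. Ccr2 and Ccr1, receptors of inflammatory chemokines, were lower in MPLA (edgeR adjusted p = 0.0135 and 0.0146). Ccr2 held 49 to 514 counts in IL4 and 19 to 35 in MPLA, with 1 MPLA sample above background, so its fitted difference of -3.46 is not a measured size, and Ccr1 differed by -1.35. Cxcr3, better known as the receptor of interferon-induced CXC chemokines, was higher in MPLA by a fitted 0.81 (edgeR adjusted p = 0.0254), with 1 of 4 IL4 samples above background, and 13 of 18 alternatives lost that call. The 3 lower calls became 0 with nearly identical pairs summed, 1 without MPLA 1 or without MPLA 4, and 5 with DESeq2 or without IL4 4. The median over the receptors was -1.27 and that over all genes -0.05.

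Genes of the IL-4 pathway bear on the same contrast. Among 17 measured genes that IL-4 is known to induce in macrophages, 12 were lower and 0 higher in MPLA (median -2.36), beside 14.2% and 12.2% of all genes. They included Retnla, with 1532 to 55590 counts in IL4 and 6 to 11 in MPLA, and Chil3, a chitinase-like protein gene, with 13 to 2821 and 10 to 14 (edgeR adjusted p = 0.000881 and 0.00918). Neither was above background in MPLA, so no exact difference is given. The β-glucan receptor gene Clec7a, above background in all 8 samples, differed by -3.70 (edgeR adjusted p = 0.00198). The 12 calls became 1 with nearly identical pairs summed, 5 with the replicate block, and 6, 7 and 6 without MPLA 1, 3 and 4. This list was chosen with earlier results of these data known. Of 11 measured IL-4 receptor signaling genes, 3 were lower in MPLA and 0 higher (median -0.06), beside 14.2% and 12.2% of all genes and their median of -0.05. The 3 were Pparg, Irf4 and Socs1 at -3.04, -3.03 and -2.01 (edgeR adjusted p = 0.0132, 0.0138 and 0.00918). Irf4 was above background in no MPLA sample, so its fitted difference is not a measured size. The 3 calls became 0 with pairs summed, and 1 with the replicate block or without MPLA 1. The receptor gene Il4ra (-0.46 ± 0.41, edgeR adjusted p = 0.439) and Stat6 (0.03 ± 0.17, edgeR adjusted p = 0.904) were not called.

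The neighboring chemokine genes on chromosome 11 were not lower in MPLA as Ccl8 and Ccl11 were, although none of their differences was called. Ccl12, which lies between them, held 1031 to 2096 counts in MPLA and 106 to 965 in IL4, a difference of 1.53 ± 0.55 (edgeR adjusted p = 0.069). Ccl2 and Ccl7 differed by 1.06 ± 0.70 and 0.78 ± 0.81 (edgeR adjusted p = 0.292 and 0.507). Within the IL4 and eGFP-NP groups, Ccl7 and Ccl2 were lowest in the same samples as Ccl11. Ccl7 held 5634, 3963, 392 and 18590 counts in IL4 and 1500, 1510, 11291 and 9448 in eGFP-NP. Ccl2 held 10815, 9754, 1492 and 36774 counts in IL4 and 6463, 6775, 20383 and 18325 in eGFP-NP, so IL4 3 and eGFP-NP 1 and 2 were the low samples of both genes. Ccl12 ran the other way in eGFP-NP, at 572, 582, 85 and 71 counts. These 3 genes were named as neighbors after their values had been seen. Of the 18 other CC chemokines, 2 were higher in MPLA, the inflammatory chemokine genes Ccl4 (2.37) and Ccl3 (2.33), and 3 were lower, Ccl22 (-3.32), Ccl19 (-1.68) and Ccl26 (-1.08), with edgeR adjusted p = 0.00222, 0.00062, 0.0225, 0.00415 and 0.0319. These counts were near the 12.2% higher and 14.2% lower among all genes, and the median of the list was 0.25. Ccl22 and Ccl19 were above background in no MPLA sample, so their fitted differences are not measured sizes. The 3 lower calls became 0 with pairs summed, 1 with the low-count filter or without any 1 MPLA sample, and 5 without IL4 2, and 8 of 18 alternatives lost the call of Ccl22. Ccl26, the neighbor of Ccl24, was below background in all 8 samples of this comparison and was named after its values had been seen. Ccl22, an IL-4-inducible ligand of CCR4, was above background in 3 of 4 IL4 samples. Among the 10 eosinophil genes, 1 was lower in MPLA, Siglecf (-2.34, edgeR adjusted p = 0.0388, list median -0.30) beside 14.2% of all genes, and 11 of 18 alternatives lost that call.

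In the comparisons that involve nanoparticles, edgeR with Benjamini-Hochberg adjustment called 0 of 754 genes, and hence 0 in each of these lists. Unadjusted p-values were under 0.05 for 53 genes in IRF5-NP against IL4, 84 in eGFP-NP against IL4 and 42 between the cargoes, where DESeq2 called 19, 56 and 6 genes. The IL-4-induced list had medians of 0.05, -0.55 and 0.63 in these comparisons and the receptor list of 0.27, -0.64 and 0.86, beside -0.14, -0.08 and 0.10 over all genes. Medians of the signaling list were -0.52, -0.44 and -0.11, of the other CC chemokines -0.04, -0.24 and 0.26, and of the eosinophil genes 0.60, 0.00 and 0.29. Retnla differed by -7.31 ± 1.75 in IRF5-NP and -8.31 ± 1.54 in eGFP-NP against IL4 (edgeR adjusted p = 0.435 and 0.148), and it was above background in 2 of 3 and 4 of 4 samples. Retnla was called in both comparisons by DESeq2 (adjusted p = 2.51e-07 and 5.36e-14) and with positive-control scaling (edgeR adjusted p = 0.0148 and 0.0327), and in eGFP-NP also in a fit of all groups, without IL4 2, and when eGFP-NP 1 and 2 were not summed. Socs1, a STAT6 target that dampens IL-4 signaling, differed by -1.79 ± 0.56 and -1.67 ± 0.52 (edgeR adjusted p = 0.508 and 0.285). Its groups did not overlap in either comparison, and DESeq2 called it in eGFP-NP (adjusted p = 0.0317). Ccr2 differed by -2.51 ± 0.87 and -1.93 ± 0.95 (edgeR adjusted p = 0.588 and 0.464), with 1 of 3 IRF5-NP and 3 of 4 eGFP-NP samples above background. The groups overlapped for Ccr2 in both, and without 1 library it ran from -2.85 to -1.56 and from -2.75 to -0.95. Other listed genes were higher in IRF5-NP than in IL4 without being called. The inflammatory chemokine gene Ccl5 differed by 3.86 ± 1.36, Ccl1 by 1.39 ± 0.47 with no IL4 sample above background, and Cxcr3, above background in 1 of 4 IL4 and 2 of 3 IRF5-NP samples, by 1.19 ± 0.34 (edgeR adjusted p = 0.588, 0.586 and 0.468). DESeq2 called Cxcr3 (adjusted p = 0.0148). The groups overlapped for Ccl5, whose difference ran from 3.48 to 5.76 without 1 library.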

How the data were processed

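Counts from 15 mouse BMDM samples were analyzed, grouped by their labels. The authors deposited raw nCounter probe counts for 754 genes, 6 positive and 8 negative controls; their methods name NanoStringQCPro, housekeeping normalization in nSolver, a log2 scale and t-tests adjusted after Benjamini-Yekutieli, none of which had been applied to the deposited counts. Samples of a group were set against each other by chi-square over genes whose summed count reached 40, and eGFP-NP 1 and 2 (1.09 per degree of freedom, p = 0.0817) were summed, which left 14 libraries. The other 4 nearly identical pairs had 1.36 to 2.56. Each pair of groups was fitted alone with edgeR 4.0.16 (R 4.3.3; TMM, quasi-likelihood test, no filter, Benjamini-Hochberg over all 754 genes, threshold 0.05). SE is the log2 difference over the root of the F statistic. Levels are log2 CPM with a prior count of 2.

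The 3 genes and all lists were chosen with earlier results of these data known, so the 3 genes carry no p-value. Named were these genes, the receptors Ccr2, Ccr3 and Ccr8, Il4ra and Stat6, per list up to 4 called genes by size of difference or otherwise up to 2 by smallest p, and the 3 genes most correlated with each chemokine. Some genes that this rule names are not reported here. No T cell marker of the list was measured. Whether numbers pair samples was checked from the data, as correlations of deviations from group means. They were 0.823, 0.821 and 0.818 between IRF5-NP and eGFP-NP, whose same-numbered samples were therefore also set side by side. Numbers 1 and 2 are nearly identical in each group, and so are eGFP-NP 3 and 4. Fibroblast markers split both groups in the same way, so the check cannot show that numbers pair samples. Alternatives were other scalings, a low-count filter, DESeq2 1.42.0, 1 fit of all groups, a replicate block, summed or separate near-identical samples, the methods' t-test and leaving out each library. The edgeR script was tested on simulated data. Lane and cartridge were not given in the sources used here, so no assay batch was tested.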

Additional observations from a re-analysis of the deposited data

Results flagged for a closer look

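Of 78 checks of a group for a sample far from the others, 1 met the limit, and chance alone flags about 1 group in 20. Pparg, a transcription factor gene of the IL-4 pathway, was at 5.55 log2 CPM in IL4 2, where the other 3 IL4 samples lay between 8.53 and 9.03. The gap made up 0.857 of the range of the group, above Dixon's limit for 4 samples. In the same sample Ccl24 held 132 counts, the lowest of IL4, and Ccl8 1843. None of the 3 chemokines met the limit in MPLA or IL4, and the nanoparticle groups, with 3 libraries each, were not checked.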

How the results depend on the processing

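The log2 differences of Ccl24 and Ccl8 against IL4 kept their sign under every alternative run for them, 14 or 15 per comparison, which leave out the low-count filter and the t-test. For MPLA, Ccl24 ranged from -4.89 to -4.35, Ccl8 from -3.64 to -3.07 and Ccl11 from -3.02 to -2.15. For IRF5-NP, the ranges were -3.69 to -2.95, -3.62 to -2.24 and -2.77 to -1.20, and for eGFP-NP -5.04 to -3.78, -4.94 to -2.89 and -1.07 to 0.66. Scaling by the positive controls gave -3.62 for Ccl8 in IRF5-NP, -5.04 and -4.94 for Ccl24 and Ccl8 in eGFP-NP, and 1.31 for Ccl24 between the cargoes. It also moved the median of all genes by -0.18, -0.60, -1.09 and 0.51 in the 4 comparisons, and scaling by housekeeping genes by -0.28, 0.12, -0.21 and 0.29. Ccl11 in eGFP-NP against IL4 changed sign with DESeq2 size factors (0.16), with DESeq2's own test (0.17) and in a fit of all groups (0.11), and ran from -0.54 to 0.66 when libraries were left out (0.47 without IL4 1, 0.17 without IL4 4, 0.66 without eGFP-NP 1-2). Between the cargoes, Ccl24 ranged from 0.45 to 1.31, Ccl8 from 0.37 to 1.96 and Ccl11 from -2.78 to -0.47. The causes were not tested.

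The 199 genes called between MPLA and IL4 became 86 with positive-control scaling, 123 in a fit of all groups, 20 with nearly identical pairs summed, and 120 or 21 with the methods' t-test after Benjamini-Hochberg or Benjamini-Yekutieli adjustment. Leaving out 1 library gave 74 to 295 calls, with 74, 98, 109 and 81 without MPLA 1, 2, 3 and 4. With housekeeping scaling 45 genes were higher and 123 lower, in place of 92 and 107. IRF5-NP against IL4 went from 0 calls to 12 with positive-control scaling, 19 with DESeq2 and 2 in a fit of all groups, and had 0 when any library was left out. eGFP-NP against IL4 went from 0 to 2, 56 and 17 in the same order, to 6 with eGFP-NP 1 and 2 separate, 1 with pairs summed and 1 with the t-test under either adjustment, and to between 0 and 2 without 1 library (2 without IL4 2, and 2 without eGFP-NP 1-2). Between the cargoes there were 6 with DESeq2, 1 in a fit of all groups and 2 with eGFP-NP 1 and 2 kept apart.

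With the replicate number as a block, 95 genes were called between MPLA and IL4 and 0 in each other comparison. Same-number correlations were -0.051 to 0.146 between MPLA and IL4, -0.448 to 0.22 between IRF5-NP and IL4 and -0.816 to 0.318 between eGFP-NP and IL4, so those samples share only a number. The block called 5 of 17 IL-4-induced genes lower, in place of 12. After Benjamini-Yekutieli adjustment, the methods' t-test called 3 of them lower, and 0 lower in each other list.

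Of the uncalled genes named, several changed sign around 0. Stat6 in MPLA against IL4 was -0.046 with DESeq2 size factors, -0.045 with DESeq2, -0.24 and -0.16 with housekeeping and positive-control scaling, -0.15 with the filter, -0.21 with the t-test, and -0.012 to 0.080 without 1 library. Il4ra ran from -0.67 to 0.045 there without 1 library. In IRF5-NP against IL4, positive-control scaling gave -0.14 for Stat6 and -0.43 for Ccr8. In eGFP-NP against IL4, Stat6 was -0.11 with housekeeping scaling, -1.01 with positive-control scaling and -0.097 with the t-test, and Ccr3, Ear6 and Prg2 were -0.64, -0.59 and -0.41 with positive-control scaling. Ccr3 ran from -0.15 to 1.12 there without 1 library. Between the cargoes, Ccr3 was 0.25, 0.66, 0.071 and 0.34 with housekeeping scaling, positive-control scaling, the filter and the t-test, and Il4ra was 0.10, 0.14, 0.027 and 0.010 with housekeeping scaling, positive-control scaling, pairs summed and the t-test. Stat6 was -0.18, -0.013 and -0.089 with the block, separate samples and pairs summed, Ccr2 was 0.018 with the t-test and Myc 0.080 with positive-control scaling. Without 1 library the ranges between the cargoes were -0.98 to 0.37 for Ccr2, -0.28 to 0.59 for Ccr3, -0.59 to 0.0054 for Il4ra and -0.084 to 0.36 for Stat6.

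Depth limited IRF5-NP 4, where 1 background limit was worth 70.5 CPM beside 13.2 to 33.2 CPM in the other libraries.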
